A study of Mus musculus with 6 samples.

Results

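The EGR and KLF early response factors described here are 7 mouse genes, the zinc finger genes Egr1, Egr2, Egr3, Klf2, Klf4 and Klf6 together with Myc, measured in primary cultured microglia, the resident macrophages of the brain. They were chosen by name. Each was represented by exactly 1 probe set to which the platform annotation gave that gene symbol alone, so that 7 of 35557 probe sets, and 7 of the 23410 tested, were followed over all 6 arrays. The tested cells were 3 cultures from fosB-null mice, homozygous for the fosBG null allele of Fosb after backcrossing to C57BL/6J for 20 generations. The other 3 cultures came from C57BL/6J wild-type mice. All 6 cultures were made from the cerebral cortex of pups aged 2 days, grown for 10 days, replated for 24 h and harvested with no further treatment given in the labels. The allele was inherited and so was not limited to microglia, the labels do not give the number of pups behind a culture, and the wild-type mice are described as C57BL/6J mice, not as littermates.

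Early response genes are transcribed within minutes of a stimulus and need no new protein for their induction. Signals that reach the ERK kinases activate the serum response factor SRF and its ELK partners at such genes, and the proteins that are made then set the later response. EGR proteins bind GC-rich sites and are held in check by the NAB corepressors, KLF2 and KLF4 restrain inflammatory genes in macrophages and endothelium, KLF6 promotes them in macrophages, and MYC drives growth and ribosome production. FosB, which is missing in the mutant, belongs to another early response family, AP-1.

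Upstream sequences of members were searched for a few short motifs. RefSeq promoter windows of GRCm38.p6 were at hand for 4 of the 7 genes, and the 250 bases before the annotated start are printed 5′ to 3′ on the strand of the gene. Capitals mark matches, on either strand, to the CArG box bound by SRF, the core TGACG of the cyclic AMP response element, the E-box CACGTG read by MYC and its partners, the KLF site CACCC and the EGR site GCGNGGGCG. Egr2 has 5 annotated starts, of which 1 is shown.
Egr2, chr10:67537619-67537868, plus strand: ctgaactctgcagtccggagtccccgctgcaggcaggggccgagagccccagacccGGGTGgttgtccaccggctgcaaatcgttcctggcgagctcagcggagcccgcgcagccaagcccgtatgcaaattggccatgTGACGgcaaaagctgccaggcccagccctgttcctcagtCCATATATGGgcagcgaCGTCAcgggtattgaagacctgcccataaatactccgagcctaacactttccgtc
Klf2, chr8:72318812-72319061, plus strand: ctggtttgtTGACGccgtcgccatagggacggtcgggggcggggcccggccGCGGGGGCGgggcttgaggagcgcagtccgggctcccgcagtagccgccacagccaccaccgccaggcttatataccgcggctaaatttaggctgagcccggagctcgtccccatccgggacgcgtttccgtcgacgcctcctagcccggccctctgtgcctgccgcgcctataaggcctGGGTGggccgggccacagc
Klf4, chr4:55532476-55532725, minus strand: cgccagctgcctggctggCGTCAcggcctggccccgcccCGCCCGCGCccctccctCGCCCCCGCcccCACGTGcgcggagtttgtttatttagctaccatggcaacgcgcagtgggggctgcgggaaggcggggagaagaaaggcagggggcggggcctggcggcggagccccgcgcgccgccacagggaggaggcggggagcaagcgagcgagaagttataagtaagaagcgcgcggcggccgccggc
Klf6, chr13:5861239-5861488, plus strand: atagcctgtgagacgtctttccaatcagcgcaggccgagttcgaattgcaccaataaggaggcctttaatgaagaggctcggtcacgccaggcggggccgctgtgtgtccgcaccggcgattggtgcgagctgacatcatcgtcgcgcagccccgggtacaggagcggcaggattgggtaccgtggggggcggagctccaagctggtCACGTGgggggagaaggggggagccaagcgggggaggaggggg

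The Egr2 window held a CArG box, CCATATATGG, 72 to 63 bases before the start, a motif found in 1.47% of 32851 promoter windows of the same length. The same box lay in the windows of both other downstream starts, and another of the 5 starts had CCTTTTTTGG. The remaining start of Egr2 had no CArG box but an E-box, CACGTG, 27 to 22 bases before it. No CArG box was found in the Klf2, Klf4 and Klf6 windows. Searches of both strands found the EGR site in the Klf2 window, as GCGGGGGCG, and at 2 places in the Klf4 window, against 4.7% of all windows, and the E-box in the Klf4 and Klf6 windows, against 6.02%. The core TGACG occurred in the Egr2, Klf2 and Klf4 windows (17.8% of all windows) and CACCC in the Egr2 and Klf2 windows (52% of all windows). Neither the AP-1 site TGANTCA, found in 6.75% of all windows, nor the full element TGACGTCA, found in 1.55%, had a match in these windows. The shares are per window, and for Egr2 5 windows were searched. These matches describe the letters only.

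Values are log2 signals per probe set, and arrays of both groups carry the replicate numbers 1 to 3. The medians of the arrays lay between 7.76 and 7.92. Arrays with the same number held identical values in 54.7% to 62.3% of tested probe sets, so they form 3 pairs, and a tied value cannot show that 2 cultures had the same level. Fosb itself had log2 signals of 7.82, 8.05 and 7.83 in fosB-null arrays and 8.01, 8.14 and 7.92 in wild-type arrays. Whether that probe set covers the mutated stretch of Fosb is unknown, and it cannot serve to check the labels. The 9 measured microglia markers had mean signals above 64.8% to 99.4% of all probe sets, and the astrocyte markers above 21.8% to 57.4%, the neuron markers above 26.6% to 51.0% and the leukocyte markers above 13.8% to 44.3%. The highest percentage was 97.7% among border macrophage markers, 83.1% among endothelial, 76.2% among oligodendrocyte and 61.9% among fibroblast and mural markers, so the first 3 of these lists overlapped the microglia markers in signal. These figures describe probe signal and not abundance.

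No member passed the test between fosB-null and wild-type microglia. The limma fit over all tested probe sets called 0 of the 7 members at an adjusted p of 0.05, where it called 0.00427% of all probe sets, and 0 of the 7 had an unadjusted p below 0.05, against 0.722% of all. With a random replicate block 1 of 7, Egr1, had an unadjusted p below 0.05 on the lower side, where 6.29% of all probe sets did. With a fixed block 0 of 7 did, against 1.76% of all probe sets on the lower side and 0.555% on the higher. The means of Egr1, Egr2, Egr3, Klf6 and Myc lay below wild-type, that of Klf2 above, and Klf4 was tied. In 41.3% of all tested probe sets the fosB-null mean lay below wild-type. The median difference of the members was -0.02 log2 units and that of all tested probe sets 0, and with single arrays left out the median of the members ran from -0.07 to 0.02. In 0 members were the groups free of overlap, against 1.12% of all probe sets. In RNA from whole cultures, fewer cells of a type and less RNA per cell cannot be told apart.

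**Figure D1:**
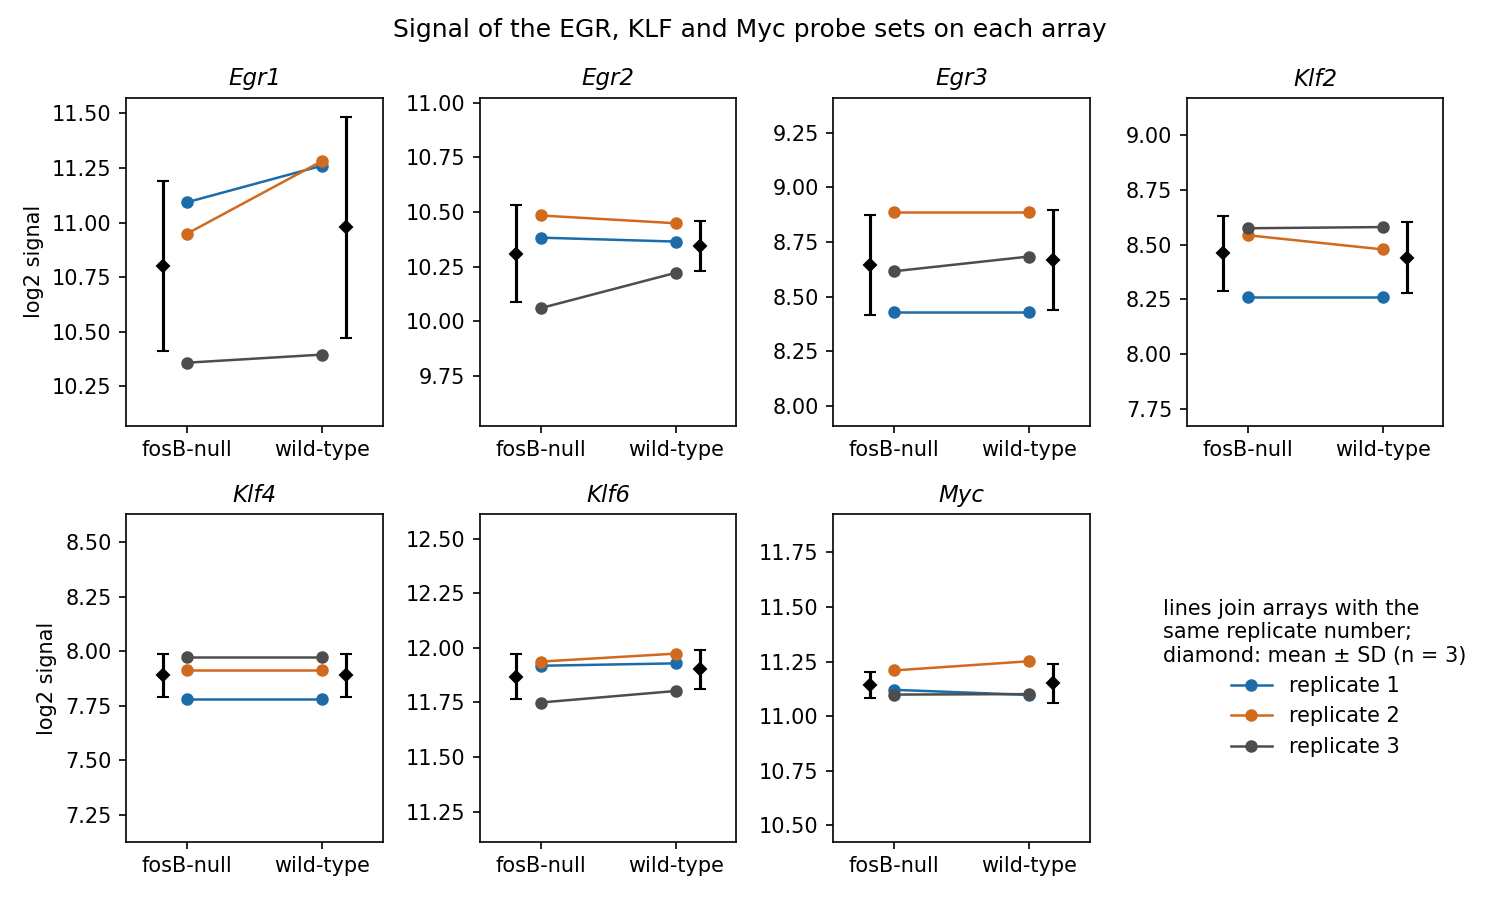
Log2 signal of each member (vertical axis, the same span of 1.5 units in every panel) on the 3 fosB-null and the 3 wild-type arrays, with lines joining arrays of the same replicate number and diamonds for the mean ± SD of a group (n = 3). Most lines are nearly level, and in Egr1 both arrays numbered 3 lie near 10.4, below the other 4.

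Egr1, the most studied member of its family and a rapid reporter of ERK signalling, showed the widest spread. Its log2 signal was 11.09, 10.95 and 10.36 in fosB-null arrays 1, 2 and 3, against 11.26, 11.28 and 10.40 in wild-type arrays 1, 2 and 3. Both arrays numbered 3 were lower than the other 4, and the groups overlapped. The group means were 10.80 ± 0.39 in fosB-null and 10.98 ± 0.51 in wild-type arrays (SD, n = 3 each). The difference was -0.18 with a standard error of 0.29 (95% interval -0.86 to 0.51, limma unadjusted p = 0.554, adjusted p = 1). This fit leaves the pairing out. Its standard errors and intervals, here and below, include the spread between replicate numbers. For Egr1 the standard error was 0.08 with a fixed replicate block and 0.07 with a random one. The fosB-null array was lower in every pair, by -0.17, -0.33 and -0.04 in pairs 1, 2 and 3, which was so for 5.57% of all tested probe sets. That share, here and below, counts in probe sets with a tied pair, which cannot be lower in every pair. With 3 pairs an exact sign-flip test cannot go below 0.25, two-sided. Without fosB-null replicate 3, which leaves its low wild-type partner in place, the difference was 0.04, and without wild-type replicate 3 it was -0.47.

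The spread of Egr1 ran between replicate numbers more than between genotypes. Of its variation over the 6 arrays, 91.9% lay between the numbers and 5.58% between the groups. Over all tested probe sets the medians of these shares were 97.8% and 0.51%. The range of Egr1, 0.92 log2 units, was exceeded by 2.12% of tested probe sets, and a size of difference above its 0.18 was found in 3.02%. By a fixed rule of likeness, the 3 genes of 907 candidates whose signal followed Egr1 most closely over the 6 arrays were Eid2b, Gpx3, which encodes a secreted glutathione peroxidase, and Spryd4, with Pearson correlations of 0.99, 0.98 and 0.98. These describe 6 arrays that form 3 pairs and carry no test. Each of the 3 genes had its lowest signals on both arrays numbered 3, and Eid2b had 9.03, 8.97 and 8.60 in fosB-null arrays against 9.15, 9.12 and 8.71 in wild-type arrays.

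Egr2, which is known for its part in myelination and in macrophage and T cell responses, had a mean difference near 0. Its log2 signal was 10.38, 10.48 and 10.06 in fosB-null arrays, against 10.36, 10.45 and 10.22 in wild-type arrays. The arrays numbered 3 were again the lowest of each group. The difference was -0.04 with a standard error of 0.13 (95% interval -0.33 to 0.26, limma unadjusted p = 0.782, adjusted p = 1), and it came from pair 3 at -0.16, as pairs 1 and 2 were 0.02 and 0.04. The mean difference turned to 0.09 without fosB-null replicate 3 and to 0.02 without wild-type replicate 2.

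Egr3, a close relative whose protein binds the same kind of site, had exact ties. It read 8.43, 8.89 and 8.62 in fosB-null arrays, against 8.43, 8.89 and 8.68 in wild-type arrays. Pairs 1 and 2 were tied, so only pair 3 gave a difference, of -0.07. The mean difference was -0.02 with a standard error of 0.16 (95% interval -0.39 to 0.35, limma adjusted p = 1), and it was 0.08 without fosB-null replicate 1 and 0.09 without wild-type replicate 2.

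Klf2, a factor that keeps endothelium and monocytes quiescent, was the member with a mean above wild-type. It had 8.26, 8.54 and 8.58 in fosB-null arrays, against 8.26, 8.48 and 8.58 in wild-type arrays. The pair numbered 1 was tied and was the lowest in both groups, and pairs 2 and 3 differed by 0.06 and -0.01. The difference was 0.02 with a standard error of 0.12 (95% interval -0.27 to 0.31, limma adjusted p = 1). It took the opposite sign under median centring, without fosB-null replicate 2 or 3 or both arrays numbered 2, and without wild-type replicate 1, where it was -0.07.

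Klf4, which takes part in macrophage polarization, had no difference in the deposited values. Its values of 7.78, 7.92 and 7.97 in fosB-null arrays were identical to those of wild-type arrays 1, 2 and 3. Such complete ties were found in 27.8% of all tested probe sets. They covered 39.9% of tested probe sets with a mean log2 signal of 9 or below, where Egr3, Klf2 and Klf4 lie, and 5.4% of those above 11, where Klf6 and Myc lie. The 6 tied pair comparisons among the 21 of the members all fell to Egr3, Klf2 and Klf4, and Egr1, Egr2, Klf6 and Myc had none. Over all tested probe sets 57.6% of pair comparisons were tied, and 70.4% at a mean log2 signal of 9 or below. For Klf4, the tie did not outlast every alternative. Rescaling the arrays moved the difference of Klf4 to -0.023 under quantile normalization and -0.024 under median centring, and single arrays left out to between -0.054 and 0.054. Whether Klf4 differs between the genotypes cannot be read from these values.

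Klf6 was lower in every fosB-null array than in its wild-type partner, by small amounts. Its log2 signal was 11.92, 11.94 and 11.75 in fosB-null arrays, against 11.93, 11.97 and 11.80 in wild-type arrays. The pairs differed by -0.01, -0.04 and -0.05, and both arrays numbered 3 were the lowest of their groups. The difference was -0.03 with a standard error of 0.09 (95% interval -0.24 to 0.17, limma unadjusted p = 0.707, adjusted p = 1). For Klf6 the standard error was 0.011 with a fixed replicate block (limma, unadjusted p = 0.0792). With a random block it was 0.017 (limma, unadjusted p = 0.0929). Leaving out single arrays, which breaks a pair, moved the difference to 0.03 without fosB-null replicate 3 and to 0.0025 without wild-type replicate 2. The sign held in all 12 other alternatives. With Egr1, Klf6 made 2 of 7 members that were lower in all 3 pairs, against 5.57% of all tested probe sets. Those include many dim probe sets with ties, so the share is not matched for signal. Of all pair comparisons 57.6% were tied, but 37.1% at a mean log2 signal of 10 to 11, where Egr1 lies. Above 11, where Klf6 lies, 32.1% were.

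Myc had the narrowest range of the 6 members that were not wholly tied, 0.15 log2 units over the arrays. It read 11.12, 11.21 and 11.10 in fosB-null arrays, against 11.10, 11.25 and 11.10 in wild-type arrays. The groups overlapped, with 1 pair above and 2 pairs below wild-type, at 0.02, -0.04 and -0.0022. The difference was -0.0070 with a standard error of 0.08 (limma unadjusted p = 0.93, adjusted p = 1), and its 95% interval ran from -0.19 to 0.17. Its sign turned under quantile normalization, without fosB-null replicate 1 or 3, without both arrays numbered 2 and without wild-type replicate 2, where it was 0.04.

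**Figure D2:**
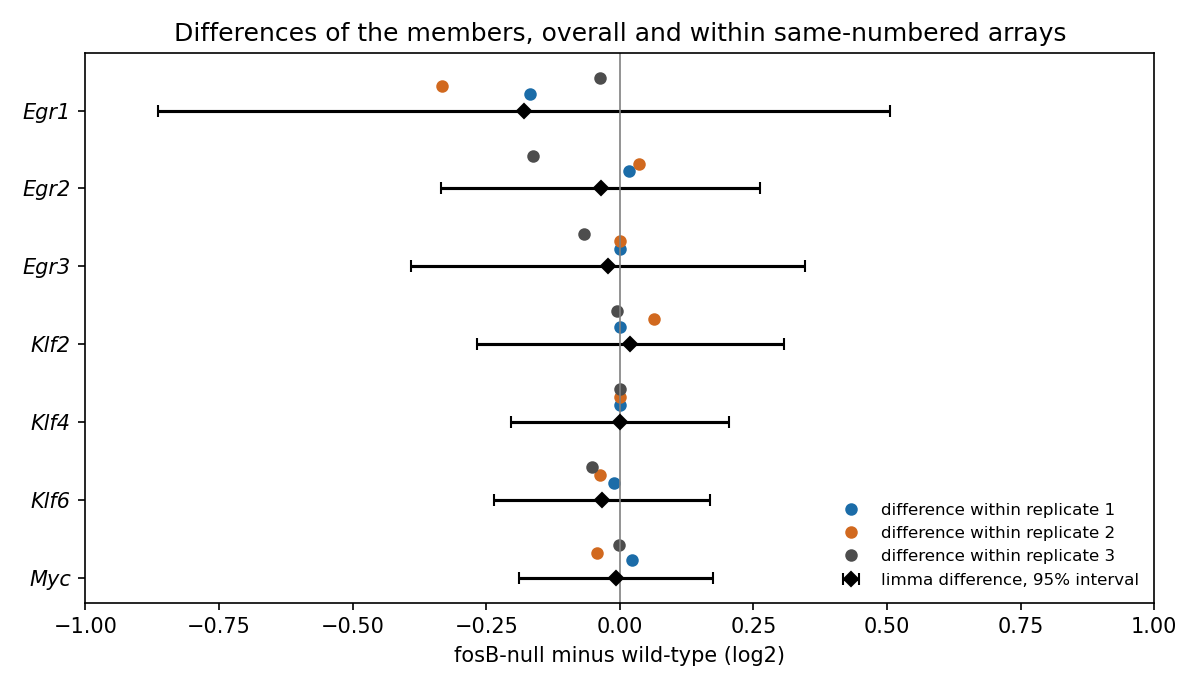
Difference of fosB-null minus wild-type (horizontal axis, log2 units) for each member, as the limma estimate with its 95% interval (diamond and bar) and within arrays of the same replicate number (coloured points). All 7 intervals include 0, and the points of Egr1 at -0.33, -0.17 and -0.04 lie to the left of 0. The intervals come from the fit without a replicate block, so they include the spread between replicate numbers.

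The genes that regulate EGR activity come next. Of the EGR corepressor genes Nab1 and Nab2 and the relatives Egr4 and Wt1, 0 of 4 passed the test, 2 lay below and 2 above wild-type, and their median difference was -0.0071. Nab2, itself a target of EGR proteins, had 11.94, 11.90 and 11.79 in fosB-null arrays against 11.95, 11.998 and 11.84 in wild-type arrays. It was lower in each pair, by -0.02, -0.10 and -0.05, with a mean difference of -0.05 (standard error 0.08). With a random replicate block 1 of the 4, Nab2, had an unadjusted p below 0.05 on the lower side, against 6.29% of all probe sets. With a fixed block 0 did. Nab1 differed by -0.02, Wt1 by 0.05, from pair 2 alone, and Egr4 by 0.0012, and the signs of these 3 turned under at least 1 alternative.

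Of the upstream genes of the SRF, MEF2 and ERK pathway, 17 of 21 were measured by a probe set of their own, and 0 passed the test. Their median difference was -0.02, with 12 below wild-type, 4 above and 1 at 0. The 4 with the lowest unadjusted p were Rps6ka3 and Rps6ka5, which encode kinases activated by ERK, with 0.12 each, Elk3, an ELK partner of SRF, with -0.10, and Map2k5, the kinase ahead of ERK5, with 0.08. Rps6ka3, Rps6ka5 and Map2k5 were higher in all 3 pairs, as 2.2% of all tested probe sets were. In the same list Mrtfb, an SRF coactivator (-0.05, -0.06 and -0.09), and Mef2d (-0.06, -0.18 and -0.0006) were lower in all 3 pairs. Of all tested probe sets 5.57% were. Rps6ka3 had 11.55, 11.66 and 11.50 in fosB-null arrays against 11.39, 11.54 and 11.40 in wild-type arrays, and the groups overlapped. With a random replicate block 3 of the 17 had an unadjusted p below 0.05 on the higher side, where 3.34% of all probe sets did. On the lower side 2 did, against 6.29% of all. With a fixed block 2 were higher, among them Rps6ka3 and Rps6ka5, and 1 was lower, Mrtfb, against 0.555% and 1.76% of all.

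In the rest of the KLF family no gene was called. Of 14 other KLF genes 0 passed the test, 8 lay below wild-type, 3 above and 3 at 0, with a median difference of -0.0056. The 4 with the lowest unadjusted p all had means below wild-type. They were Klf13 at -0.11, Klf10, which is induced by TGF-beta, at -0.11, its relative Klf11 at -0.12 and Klf3, a repressor, at -0.07. Klf11 had 9.49, 9.58 and 9.39 in fosB-null arrays against 9.62, 9.75 and 9.46 in wild-type arrays. Klf11 and Klf13 were lower in every pair, as 5.57% of all tested probe sets were. With a random replicate block these 2 of the 14 had an unadjusted p below 0.05, against 6.29% of all on the lower side. With a fixed block 1 did, Klf11, against 1.76%.

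The partners and targets of MYC were set beside Myc. In the MYC network, which includes its partner Max and the MXD antagonists, 0 of 14 genes passed the test, 5 lay below wild-type, 5 above and 4 at 0, and the median difference was 0. Of the 14, 4 were lower in every pair and 0 higher, against 5.57% and 2.2% of all tested probe sets. With a random replicate block 2 had an unadjusted p below 0.05, both lower, against 6.29% of all. With a fixed block 1 did, Mlx, against 1.76%. Mxi1, a MAX-binding antagonist of MYC, differed by -0.17, or -0.16, -0.33 and -0.03 in the pairs, the T-box factor Mga by 0.07, from pair 3 alone, Mlx by -0.08 and the coactivator Trrap by 0.05. With single arrays left out Mxi1 was at -0.28 where wild-type replicate 3 was dropped and at -0.05 where wild-type replicate 2 was. Mlx was at -0.0089 where fosB-null replicate 3 was dropped and at -0.15 where wild-type replicate 3 was. Dropping a single array breaks a pair, and within the pairs Mlx differed by -0.08, -0.07 and -0.10. Of 20 MYC target genes 0 passed, with 10 above wild-type, 8 below and 2 at 0. With a random replicate block 1 of these 20, Tfrc, had an unadjusted p below 0.05 on the higher side, against 3.34% of all. With a fixed block 0 did. The transferrin receptor gene Tfrc differed by 0.14, Odc1 of polyamine synthesis by -0.11, from pair 2 alone, the lactate dehydrogenase gene Ldha by 0.08 and the nucleolar gene Nop56 by 0.06.

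Genes of cell division were set beside Myc because MYC drives growth. All 14 measured members of that list had means above wild-type, with a median difference of 0.65, and 0 passed the adjusted test, while 5 had an unadjusted p below 0.05, as 0.269% of all tested probe sets did in this direction. With a random replicate block 14 did, against 3.34% of all, and with a fixed replicate block 0 did, against 0.555%. Their mean log2 signal was 9.42, 10.14 and 9.42 in fosB-null arrays, against 8.50, 9.10 and 9.42 in wild-type arrays. The median difference of the list was 0.98, 1.07 and 0.0088 in pairs 1, 2 and 3. The mean differences were 0.89 for Bub1, a kinase of the spindle checkpoint, 0.78 for Ccnb2, a mitotic cyclin, 0.71 for Nusap1, which bundles spindle microtubules, and 0.31 for Melk. Over the same pairs fosB-null and wild-type Myc signals were at most 0.04 log2 units apart. The part of cell division in the values of the members was not tested.

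Other early response genes had more means below wild-type. Of 29 measured, 27 had means below wild-type and 2 above, 0 passed the adjusted test, and 6 had an unadjusted p below 0.05, all lower, as 0.453% of all tested probe sets did in this direction. That count was 18 with the random replicate block, against 6.29% of all, and 7 with the fixed one, against 1.76%. Their median difference was -0.11, or -0.13, -0.15 and -0.06 in the pairs. Of the 29, 15 were lower in every pair, against 5.57% of all tested probe sets, a share that counts in probe sets with tied pairs. The list holds Fosb, the mutated gene itself, at -0.19, -0.09 and -0.09 in the pairs. Fosb is counted in the 27, the 15, the 18 and the 7. The list was drawn up with an earlier result on such genes in these arrays known, so its direction is not independent evidence. The stress gene Gadd45b had 9.82, 9.69 and 9.45 in fosB-null arrays against 10.15, 9.98 and 10.11 in wild-type arrays, a difference of -0.43 without overlap. Nr4a1 differed by -0.92, Nr4a3 by -0.42 and the phosphatase gene Dusp1 by -0.30, also without overlap between the groups. Egr1, at -0.17, -0.33 and -0.04, had its largest difference in pair 2, as did Nr4a1 (-0.95, -1.61 and -0.19) and Dusp1 (-0.30, -0.40 and -0.19). That of Nr4a3 lay in pair 1 (-0.58, -0.42 and -0.25) and that of Gadd45b in pair 3 (-0.33, -0.29 and -0.67). No difference between Egr1 and these genes was tested.

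**Figure D3:**
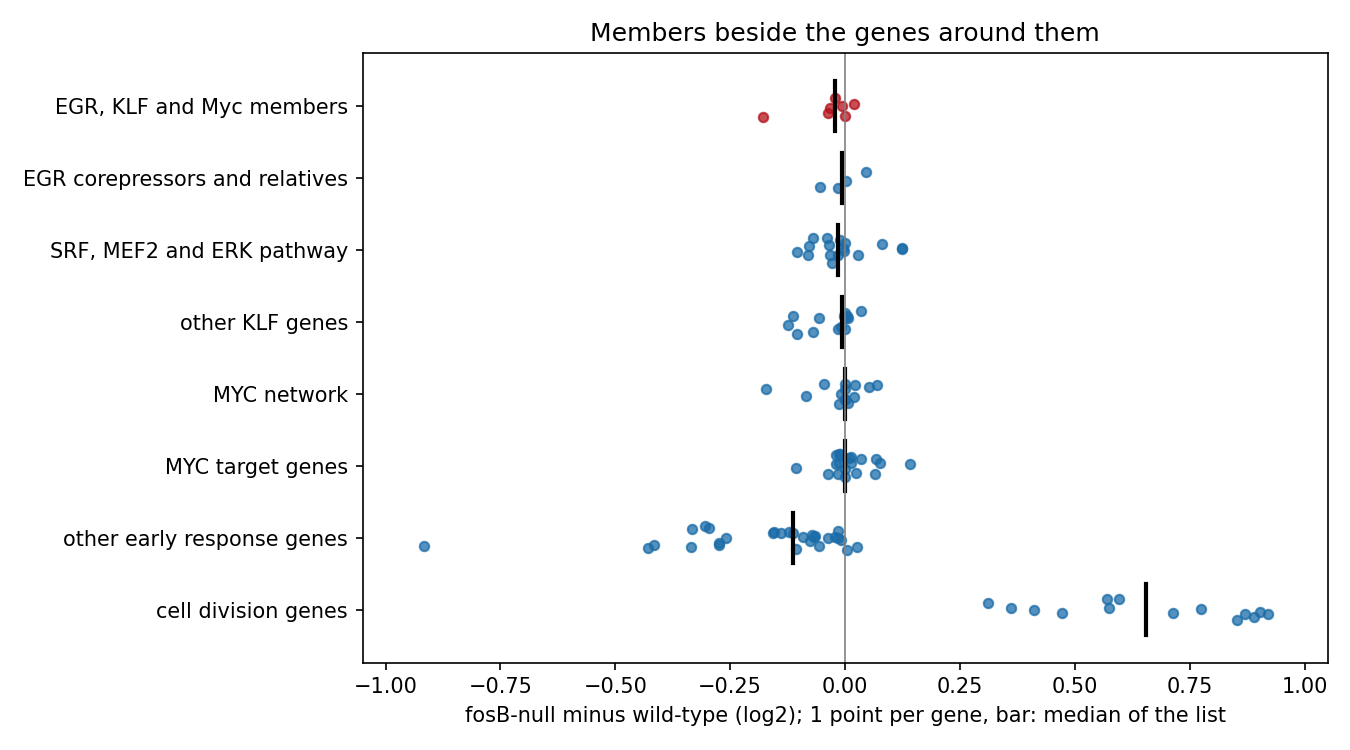
Difference of fosB-null minus wild-type (horizontal axis, log2 units) for every measured gene of the members and of 7 gene lists, 1 point per gene, with a bar at the median of each list. The members, the corepressors, the upstream genes, the other KLF genes and both MYC lists centre near 0, the other early response genes at -0.11 and the cell division genes at 0.65.

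Markers of other cells were compared as a check. The mean signal of the 8 astrocyte markers ran from 7.25 to 7.37 in fosB-null arrays and also in wild-type arrays, with 7 of 8 tied in all pairs. For the 6 border macrophage markers, cells that microglia resemble, it ran from 9.27 to 9.47 in fosB-null and from 9.19 to 9.38 in wild-type arrays. Of these 6, 4 had means above wild-type and 2 were at 0. Mrc1 differed most, by 0.29, 0.55 and -0.03 in the pairs, with a mean of 0.27, the largest among all marker lists. Among the oligodendrocyte, neuron, fibroblast and mural, endothelial and leukocyte markers 0 passed the test, and their median differences lay between -0.04 and 0.03. Single markers stood apart from these medians. The myelin gene Mbp had 9.74, 9.62 and 9.70 in fosB-null arrays against 10.06, 9.86 and 9.76 in wild-type arrays, lower in every pair and without overlap, a mean difference of -0.21 (limma, unadjusted p = 0.0664). Cspg4, of oligodendrocyte precursors, differed by -0.36, -0.43 and 0.20 in pairs 1, 2 and 3, and the fibroblast matrix gene Postn by 0.69, 0.67 and -0.57. Mrc1 and these 3 markers were singled out after their values were seen, and their part in the lower signals of early response genes was not tested. The 9 microglia markers averaged 11.25 to 11.39 in fosB-null and 11.16 to 11.37 in wild-type arrays.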

How the data were processed

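The deposited table holds 1 log2 signal per probe set for each of 6 Affymetrix whole-transcript arrays, which the authors made, per the submitters' processing notes, in Affymetrix Expression Console. The software version, the summary method and the normalization were not given in the sources used here. That the scale is log2 was inferred from the range of the values, 1.73 to 14.6. Per the labels' protocols, 100 ng of total RNA was amplified and labelled with biotin.

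Of 35557 probe sets, 21789 had exactly 1 symbol in the platform annotation, 1621 several and 12147 none. Symbols were updated through gene numbers in RefSeq (GRCm38.p6), which held 21698. The 23410 with a symbol were fitted with limma 3.58.1 under R 4.3.3 (moderated test from eBayes, two-sided, no block, no filter), adjusted by Benjamini-Hochberg at 0.05. The fit was tested on simulated data with independent arrays. These had no pairs and no ties, so that test does not cover the pairing and the ties of the real values. Differences are fosB-null minus wild-type. The number of arrays limits the precision, and an exact permutation test of 3 against 3 cannot go below 0.1.

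After subtraction of the group means, arrays numbered 1, 2 and 3 correlated with their partners at 0.91, 0.82 and 0.82 over tested probe sets, so the numbers were taken to pair the samples. This rests on the values and on no label. The labels call the arrays biological replicates.

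Named genes are the members, up to 4 genes of lowest unadjusted p in each of 7 lists, and the 3 genes most correlated with any member whose range reaches 0.5, among brighter, named genes of the same range. A gene with several probe sets is represented by the brightest. Fosb and the marker lists are named as checks. Members and lists were chosen with earlier results of these data known. Alternatives were quantile normalization, median centring, leaving out the dimmest 40%, testing all or only single-symbol probe sets, eBayes with a trend or robust, a fixed or random replicate block and leaving out each array. Leaving out both arrays of a number was added after seeing the data.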

Additional observations from a re-analysis of the deposited data

How the results depend on the processing

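None of the 7 members passed the adjusted threshold under any of 18 alternatives, and no gene of the 7 lists did. Over all tested probe sets 1 was called. With the fixed replicate block 0 were called and with the random replicate block 47, with 541 and 2255 at an unadjusted p below 0.05. When single arrays were left out the count ran from 1 to 2, 2 being the value without wild-type replicate 3, and without both arrays of number 1, 2 or 3 it was 0, with 76, 109 and 263 at an unadjusted p below 0.05. Neither replicate block brought a member or a list gene past the adjusted threshold, though counts at an unadjusted p below 0.05 changed in several lists. For Egr1 the difference was -0.18 in both block fits, with an adjusted p of 0.674 with the fixed and 0.469 with the random replicate block (limma, unadjusted p = 0.131 and 0.0366).

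Signs of small differences turned. Quantile normalization gave 0.000936 for Myc and -0.019 for Egr4, and median centring -0.0042 for Klf2 and -0.023 for Egr4. Without both arrays of number 2 Klf2 was at -0.0027, Myc at 0.011 and Nab1 at 0.0034, and without those of number 3 Egr2 was at 0.027 and Egr3 at 0. Leaving out single arrays, which breaks a pair, moved Egr1 between -0.47 and 0.042, Egr2 between -0.12 and 0.088, Egr3 between -0.14 and 0.087, Klf2 between -0.069 and 0.12, Klf4 between -0.054 and 0.054, Klf6 between -0.083 and 0.026 and Myc between -0.040 and 0.044. It moved Wt1 between -0.0020 and 0.096, Nab1 between -0.050 and 0.012, Egr4 between -0.036 and 0.038, Trrap between -0.0072 and 0.11, Odc1 between -0.17 and 0.012, Nop56 between -0.046 and 0.13, Eid2b between -0.27 and 0.0064 and Gpx3 between -0.35 and 0.026. Without a turn of sign it moved Mxi1 between -0.28 and -0.052, Mlx between -0.15 and -0.0089, Spryd4 between -0.29 and -0.012, Nab2 between -0.10 and -0.012, Klf3 between -0.12 and -0.024, Klf10 between -0.17 and -0.037, Klf11 between -0.20 and -0.054, Ldha between 0.028 and 0.16, Mga between 0.019 and 0.10 and Rps6ka5 between 0.038 and 0.20. The median of the members ran from -0.068 to 0.016, that of the other KLF genes from -0.063 to 0.020, that of the other early response genes from -0.17 to -0.071 and that of the cell division genes from 0.42 to 0.86, or 1.02 without both arrays of number 3. The cause was not tested. Exact ties and 3 pairs limit what these arrays can show.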
